A study of Mus musculus with 20 samples.

Results

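Imprinting control regions are the stretches of DNA where one parental allele is methylated and the other is not, and they set which parent's copy of a gene cluster is expressed. The mark is laid down in the egg or the sperm, survives the reprogramming of the early embryo and is then copied at each cell division, so a somatic tissue is known to hold a methylated and an unmethylated allele side by side. Methylation near the middle of the scale is the usual reading of such a region, and a loss or a gain of methylation there can accompany loss of imprinting.

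The 10 regions described here were those of Peg3, Snrpn, H19, Kcnq1ot1, Mest, Gnas, Igf2r, Plagl1, Grb10 and Impact. Their members were the CpG cytosines inside 10 fixed mm9 intervals that were covered by at least 10 reads in at least 4 of the 5 libraries of every group. The rule used position and coverage alone. It kept 722 cytosines of the 1730534 autosomal cytosines that met the same coverage rule.

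Methylation was measured by enhanced reduced representation bisulfite sequencing (ERRBS), which reads CpG-rich restriction fragments after a treatment that turns unmethylated cytosine into T and leaves methylated cytosine as C. The 20 libraries came from promyelocytes, the granulocyte precursors, of mice on the FVB/n background. They formed 4 groups of 5 libraries: PML-RARa CD34+, WT CD34+, PML-RARa CD34- and WT CD34-. PML-RARa mice carry the fusion gene of acute promyelocytic leukaemia as a transgene, WT mice are the controls, and the series' text calls CD34+ cells early promyelocytes and CD34- cells late ones. The labels do not name the promoter of the transgene or the age or sex of the mice. The titles mark each library #1 or #2, with 2 libraries of a mark and 3 of the other in every group, which the labels do not explain. From libraries 1 and 2 on, each CD34+ library is followed by a CD34- library of the same genotype and mark. The labels do not say whether such libraries come from the same mouse, and the main tests treat them as unpaired. They also leave unsaid how many mice stand behind the 5 libraries of each group, so the p-values measure the spread between libraries, which may in part be technical. RNA was not analysed here, so the labelled cell type was not checked against marker genes. The design asks how methylation differs between PML-RARa and control promyelocytes and between the fractions.

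Total coverage, summed over cytosines, lay between 83631324 and 362881291 per library, and the median coverage of the member cytosines between 31 and 192.5 reads. A read that spans several cytosines counts at each of them. The files give a percent per cytosine and strand, averaged over cells and over both alleles. The parental alleles could therefore not be told apart, and fewer cells with a methylated allele and lower methylation per allele cannot be told apart either.

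Promoters of paternally expressed transcripts are known to lie inside several control regions that are methylated on the maternal allele. Those of Peg3, Snrpn, Kcnq1ot1, Mest and Plagl1 are shown because methylation of the maternal allele is known to silence them. They are RefSeq sequences of the GRCm38.p6 build, 250 bases before to 50 bases after the start, 5′ to 3′ on the gene's strand, with every CpG in capitals. The measured positions are on mm9 and were not converted, so it is not stated which measured cytosine lies in which promoter.
Peg3 promoter, chr7:6730370-6730669, minus strand: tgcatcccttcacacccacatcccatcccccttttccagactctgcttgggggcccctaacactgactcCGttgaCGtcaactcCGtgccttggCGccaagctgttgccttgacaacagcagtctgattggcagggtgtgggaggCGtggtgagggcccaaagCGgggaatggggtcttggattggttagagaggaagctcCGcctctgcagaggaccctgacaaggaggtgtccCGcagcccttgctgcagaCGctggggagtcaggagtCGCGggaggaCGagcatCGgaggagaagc
Snrpn promoter, chr7:60005150-60005449, minus strand: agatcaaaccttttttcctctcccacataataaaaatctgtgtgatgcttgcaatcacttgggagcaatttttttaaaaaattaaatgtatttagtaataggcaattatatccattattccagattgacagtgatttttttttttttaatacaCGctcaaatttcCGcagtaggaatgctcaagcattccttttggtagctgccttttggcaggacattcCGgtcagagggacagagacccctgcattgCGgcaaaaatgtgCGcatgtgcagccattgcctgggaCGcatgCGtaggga
Kcnq1ot1 promoter, chr7:143296498-143296797, minus strand: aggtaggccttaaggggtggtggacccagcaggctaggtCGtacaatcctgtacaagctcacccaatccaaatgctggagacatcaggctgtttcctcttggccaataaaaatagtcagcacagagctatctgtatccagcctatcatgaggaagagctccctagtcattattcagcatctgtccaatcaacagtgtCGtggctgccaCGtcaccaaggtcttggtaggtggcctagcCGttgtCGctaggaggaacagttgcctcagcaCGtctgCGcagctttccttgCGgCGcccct
Mest promoter, chr6:30737800-30738099, plus strand: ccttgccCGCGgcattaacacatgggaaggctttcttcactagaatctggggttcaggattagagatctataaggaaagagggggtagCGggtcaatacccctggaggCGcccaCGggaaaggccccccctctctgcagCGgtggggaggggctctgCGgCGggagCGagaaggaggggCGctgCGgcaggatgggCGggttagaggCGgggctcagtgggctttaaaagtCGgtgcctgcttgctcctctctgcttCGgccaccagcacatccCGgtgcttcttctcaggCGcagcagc
Plagl1 promoter, chr10:13090582-13090881, plus strand: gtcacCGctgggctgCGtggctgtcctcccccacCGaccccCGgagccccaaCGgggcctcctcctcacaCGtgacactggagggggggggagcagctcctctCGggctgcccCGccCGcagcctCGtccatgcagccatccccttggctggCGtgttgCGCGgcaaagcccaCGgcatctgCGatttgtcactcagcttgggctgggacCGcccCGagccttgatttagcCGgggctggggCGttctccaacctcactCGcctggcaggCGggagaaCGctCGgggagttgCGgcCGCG

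The Peg3 promoter held 13 CpG sites, that of Snrpn 7, that of Kcnq1ot1 9, that of Mest 17 and that of Plagl1 26, against a median of 7 over all 32851 promoters of that length. The letters TGCCGC or, on the other strand, GCGGCA, the core of the sites known for the imprint-keeping zinc finger protein ZFP57, were found at base 249 of the Snrpn promoter, at bases 9 and 184 of the Mest promoter and at base 161 of the Plagl1 promoter. They were not among the letters of the Peg3 and Kcnq1ot1 windows. Snrpn and Mest have other promoters, which are not shown. Those of Snrpn from 60450128, 60140176 and 60047929 held 2, 3 and 4 CpG sites, and that of Mest from 30733256 held 8. None of these held the letters. Of all promoters 11.6% held them. RefSeq promoters were matched for 8 of the 10 genes, 17 promoters in all, of which 5 held the letters. These are not all distinct sequences. The Mest promoters from 30737800 and from 30737803 overlap and hold the same letters, so they are counted double. The Gnas promoters from 174327499 and from 174327518, without the letters, overlap too.

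The 10 regions stood at intermediate methylation in these promyelocytes. Of the 722 member cytosines, 527 (73.0%) had a mean over the 20 libraries between 20% and 80%, against 7.41% of all autosomal cytosines by the same measure, and 454 (62.9%) lay between 30% and 50%, against 1.83% of all. Outside Gnas, 320 of 353 member cytosines (90.7%) were intermediate. In Peg3, Snrpn, Kcnq1ot1, Igf2r, Plagl1 and Impact every member cytosine was. Over all autosomes 60.4% of cytosines lay below 20% and 32.2% above 80%, and in the 10 intervals 24.2% and 2.77% did.

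The methylation level of a region was taken as the percent of methylated reads, summed over its intermediate cytosines, in each library. These cytosines were chosen by their mean over all 20 libraries without regard to group, so that the height of the level is a description and only its differences between groups are tested. At the edge of the choice, a Grb10 cytosine at 19.95% was left out and another Grb10 cytosine at 20.98% was kept, while an H19 cytosine at 78.7% was kept and another at 81.4% was left out.

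H19 had the highest level, 60.9% ± 5.26 (SD, n = 20 libraries), and was above Gnas in 20 of 20 libraries. Its control region, upstream of the H19 non-coding RNA and between it and the growth factor gene Igf2, is the only region of the 10 known for methylation on the paternal allele alone. No gene model of mm9 was used, so it is not stated which cytosines of the interval lie upstream of H19. The level pools runs of different means, given below, and may not be that of the control region alone. The other 9 regions had means between 36.9% and 40.4%. Gnas stood at 40.4% ± 2.60, Kcnq1ot1 at 40.3% ± 6.33, Peg3 at 40.0% ± 9.01, Snrpn at 39.7% ± 8.69, Plagl1 at 38.0% ± 4.91, Impact at 38.0% ± 7.85, Mest at 37.7% ± 9.52, Grb10 at 37.5% ± 4.60 and Igf2r at 36.9% ± 9.22. Each of these 9 lay closer to its neighbour in the order, by between 0.071 and 1.69 percentage points, than its own SD, so no order among them is given. Of their 180 values per library 158 (87.8%) lay between 30% and 50%, 9 lay above 50% and 5 below 20%. The likeness of these means rests in part on the choice of intermediate cytosines. Over all member cytosines the read-weighted level was 28.0% ± 2.28 at Gnas, 34.3% ± 7.17 at Mest and 35.0% ± 4.49 at Grb10, and unchanged at the rest of these 9.

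**Figure D1:**
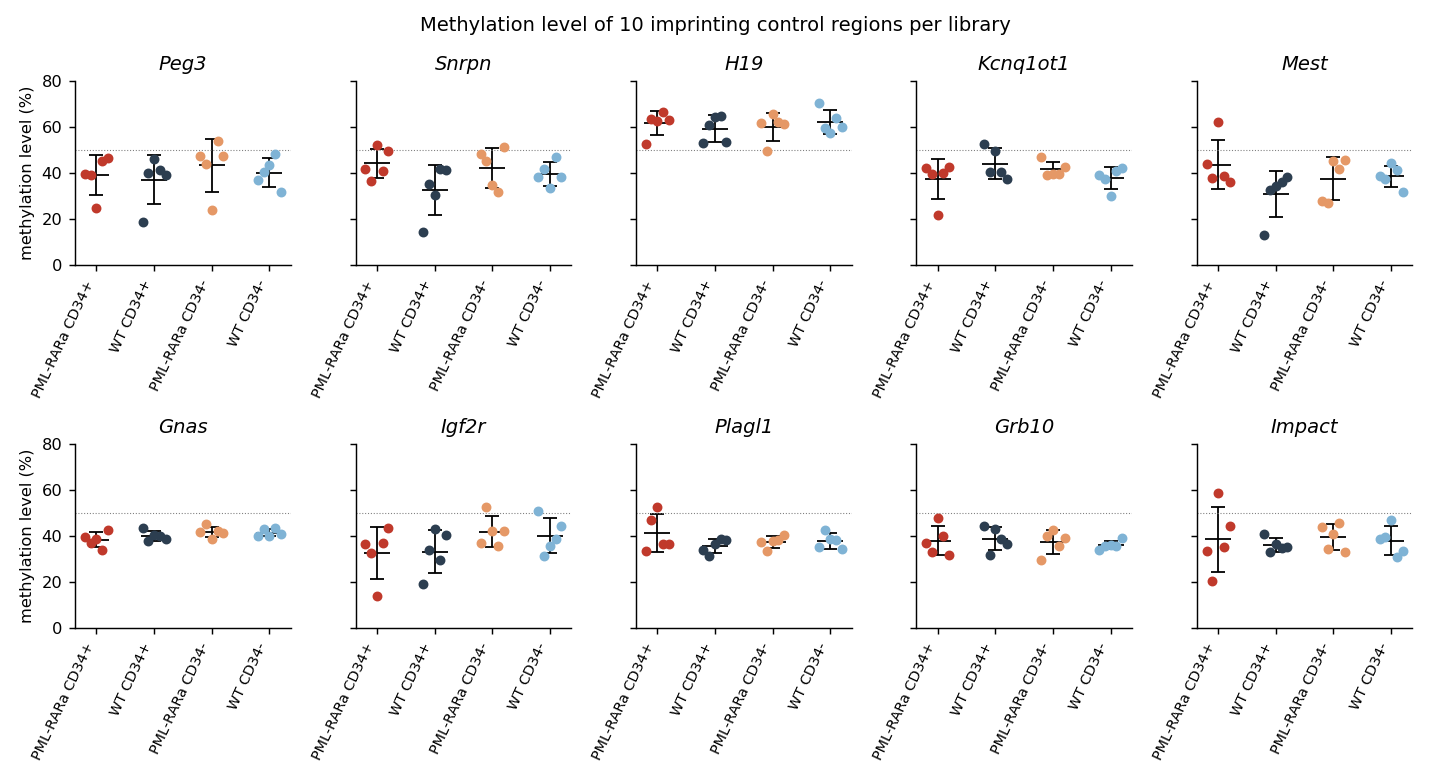
Methylation level (percent of methylated reads over the intermediate cytosines) of the 10 imprinting control regions, with 1 point per library, and the mean and SD of each group of 5 as a bar. H19 sits near 60% in each group and the other 9 regions near 40%, with single libraries far off at Peg3, Snrpn, Kcnq1ot1, Mest, Igf2r and Impact.

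The H19 interval (chromosome 7, positions 149761001 to 149769000, mm9) was not uniform. Its 18 member cytosines fell into 3 runs. The first, positions 149761700 to 149761918, had 6 cytosines with a mean of 86.9%, and the last, positions 149767047 to 149767292, had 5 with a mean of 68.9%. In the run between them, 5 cytosines from position 149764070 to 149764148 had means between 26.0% and 42.5%, whereas the cytosines at 149764673 and 149764881 had means of 81.4% ± 15.2 and 85.1% ± 11.6 (SD, n = 20 each). Taken without weighting by reads, the mean over the 12 intermediate cytosines was 56.0% ± 4.88, and over all 18 member cytosines the read-weighted level was 71.4% ± 5.70.

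In Peg3, Snrpn, Kcnq1ot1, Plagl1, Impact and Igf2r the member cytosines formed a single run each. Peg3, a zinc finger gene expressed from the paternal copy, had 10 cytosines within 123 bases (positions 6682917 to 6683039 of chromosome 7), with means between 33.2% and 43.4%. Snrpn, which encodes a splicing protein and whose region governs the Prader-Willi and Angelman gene cluster, had 18 cytosines between positions 67149466 and 67150115, with means between 28.6% and 44.5%. Kcnq1ot1, a long non-coding RNA that silences its neighbours on the paternal chromosome, had 20 cytosines within 244 bases (150481280 to 150481523), and their means differed least, from 37.8% to 44.1%. Plagl1, a zinc finger transcription factor gene on chromosome 10, had 68 cytosines between 12810429 and 12810995 with means between 27.9% and 55.2%. Impact, an inhibitor of the translation kinase GCN2 on chromosome 18, had 30 cytosines between 13130707 and 13132015, with means between 29.9% and 47.2%. The Igf2r region on chromosome 17, which holds the promoter of the silencing RNA Airn inside the receptor gene, had 28 cytosines between 12934456 and 12935287 with means between 33.4% and 53.3%.

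Mest and Grb10 held stretches below 20%. Mest, a hydrolase gene expressed from the paternal copy, had 3 runs of 6 cytosines on chromosome 6. Those at 30685294 to 30685509 and 30689254 to 30689334 averaged 39.3% and 40.2%. The run between them, 57 bases from 30688074 to 30688130, averaged 18.8%, and its 1 kb window ranged from 0 to 84.5% over the 20 libraries (mean 19.4% ± 21.1). The 84.5% was that of WT CD34- library 16, which had the fewest reads there, 58 when counted at each cytosine. The next highest value was 45% in PML-RARa CD34- library 4, with 80. In Grb10, an adaptor of the insulin receptor, 121 of 143 cytosines were intermediate, and the 22 others all lay on the plus strand with means between 18.0% and 19.95%. Of these, 14 lay between positions 11926392 and 11926465 of chromosome 11, where the minus strand of the same CpG sites averaged 34.6%, against 19.1% on the plus strand. At the 14 sites the plus strand lay between 18.3% and 19.9% and the minus strand between 31.3% and 40.2%. These sites were picked for a plus-strand mean below 20%, and 4 others in the same stretch are not among them, with 21.0% to 25.7% on the plus strand and 34.5% to 45.2% on the minus strand.

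**Figure D2:**
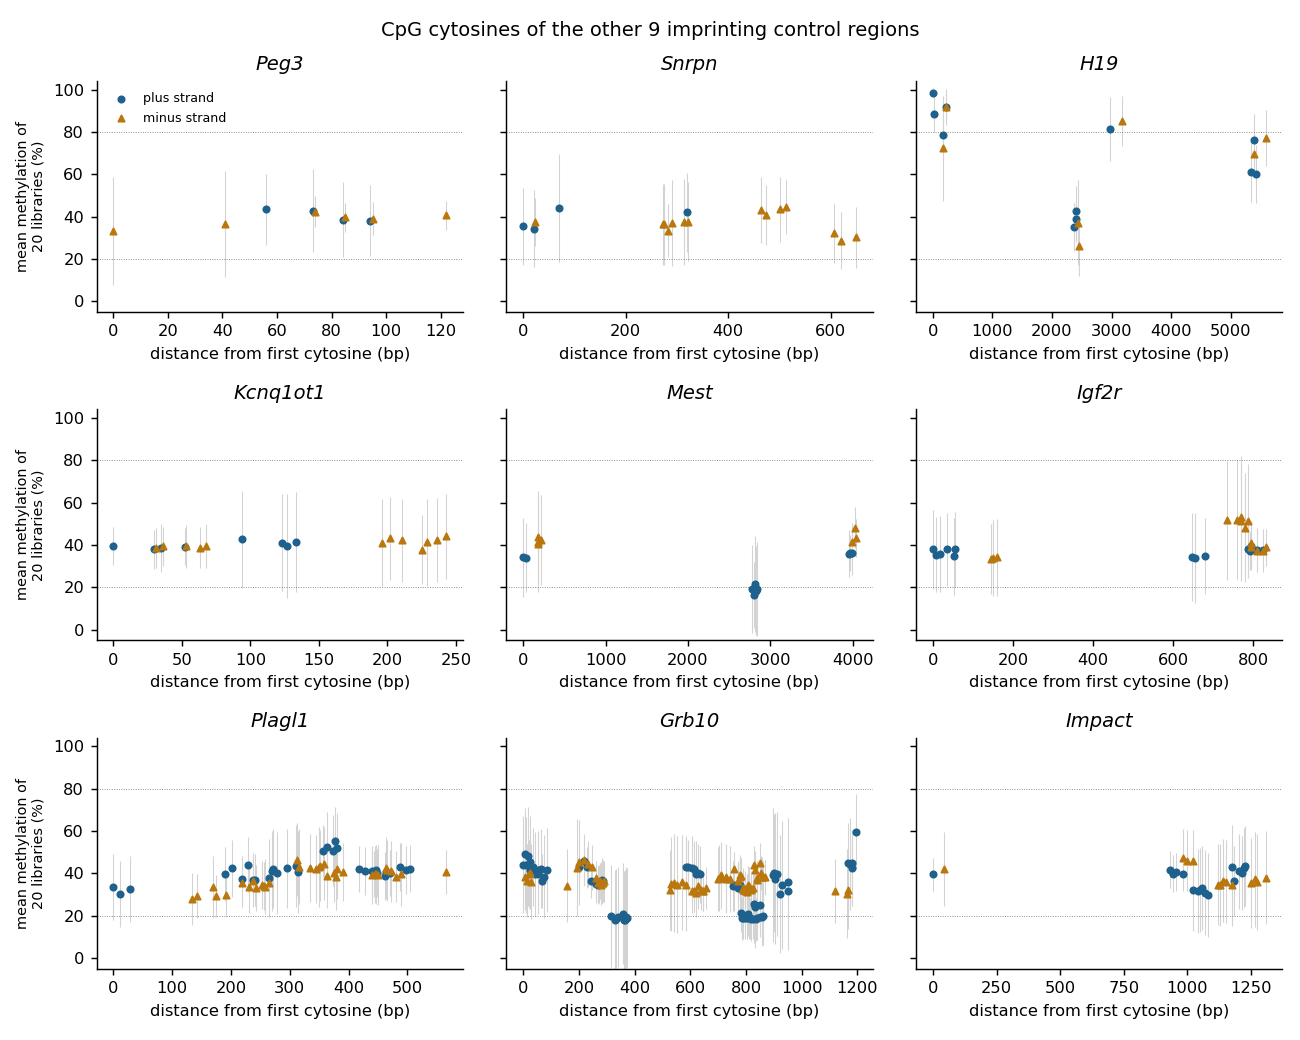
Mean methylation of each member cytosine over the libraries that cover it (vertical axis, percent, with SD as grey bars) against its distance in bases from the first member cytosine, for the 9 regions other than Gnas. Circles are plus strand and triangles minus strand, and dotted lines mark 20% and 80%. Most points lie near 40%, with the H19 runs at 86.9% and 68.9% and the low runs of Mest and Grb10 as exceptions.

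Gnas, which encodes the alpha subunit of the stimulatory G protein, lies in a cluster known to carry regions of either parental origin, and it had the widest interval (chromosome 2, positions 174118001 to 174156000) and 369 of the 722 cytosines. Its methylation differed by stretch. From 174120990 to 174126108, in 2 runs, 144 of 148 cytosines were intermediate, and the runs averaged 43.1% and 44.3%. From 174141739 to 174147578 lay 10 cytosines, 9 of them above 80%, with run means of 89.9% and 96.1%. Another stretch, from 174152432 to 174154530, had 62 intermediate cytosines of 65 and a mean of 36.6%. Its last cytosine stood at 20.2% ± 21.3 (SD over libraries).

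After a further 256 bases the methylation was close to 0. All 146 cytosines from 174154786 to 174156000 had means of at most 2.46%, with a median of 0.0595%. The window from 174155001 to 174156000, with 139 of them, stood at 0.103% ± 0.0411 and ranged from 0.0431% to 0.197% over the 20 libraries. Single cytosines broke the pattern. On the plus strand, the cytosine at 174154098 stood at 98.1% ± 2.51 inside that last intermediate stretch. At the CpG site at 174152432 the plus strand read 45.3% and the minus strand 0%, and at the site at 174152489 the plus strand read 0.163% and the minus strand 49.2%.

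**Figure D3:**
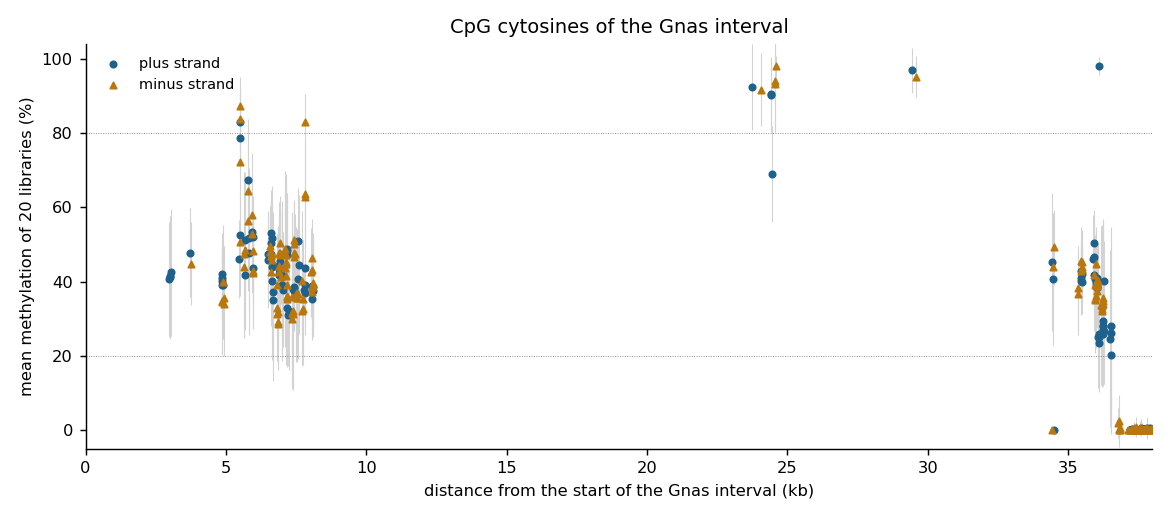
Mean methylation of each of the 369 member cytosines of Gnas over the 20 libraries (vertical axis, percent, with SD as grey bars) against distance from the start of the interval in kb. Circles are plus strand and triangles minus strand. Points near 40% at both ends enclose points above 80%, and the last 146 cytosines lie at or under 2.46%.

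The libraries were run on 4 flowcells, lettered A to D here. Some libraries stood apart before any comparison. WT CD34+ library 1 had the lowest level of all 20 at Peg3 (18.6%), Snrpn (14.6%) and Mest (13.2%), and the highest at Kcnq1ot1 (52.5%). PML-RARa CD34+ library 11 had the lowest at Kcnq1ot1 (22.0%) and Igf2r (13.7%) and the highest at Snrpn (52.3%), Mest (62.2%), Plagl1 (52.7%), Grb10 (47.7%) and Impact (58.8%). Of the 9 regions other than H19, 7 lay outside 30% to 50% in library 11 and 5 in library 1, against 0 to 2 in every other library. PML-RARa CD34+ library 5 had the lowest level at Impact (20.2%).

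These libraries also had the most cytosines near all or none. Over the member cytosines of intermediate mean, 18.6% read below 5% or above 95% in PML-RARa CD34+ library 11, 17.2% in WT CD34+ library 1, 11.9% in PML-RARa CD34+ library 5 and 10.6% in PML-RARa CD34- library 6. In each of the other 16 libraries it was at most 4.55%. The same measure over all intermediate autosomal cytosines was also highest there, at 28.6%, 28.3%, 17.3% and 22.8%. Median coverage of the member cytosines was 31, 34.5 and 31 reads in libraries 11, 1 and 5, the 3 lowest values, but 147 in library 6. Beside the level differences named below stands the value without the 5 libraries of high scatter known from an earlier look at these data, which are these 4 and PML-RARa CD34- library 12. Library 12 had 3.47% over the member cytosines, below the 4.55% of PML-RARa CD34- library 4. Over all intermediate autosomal cytosines it had 10.8%, against 8.86% in library 4. Since the 5 were picked for scatter in these same data, a smaller difference without them is no independent test. Every group but WT CD34- then holds fewer libraries.

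**Figure D4:**
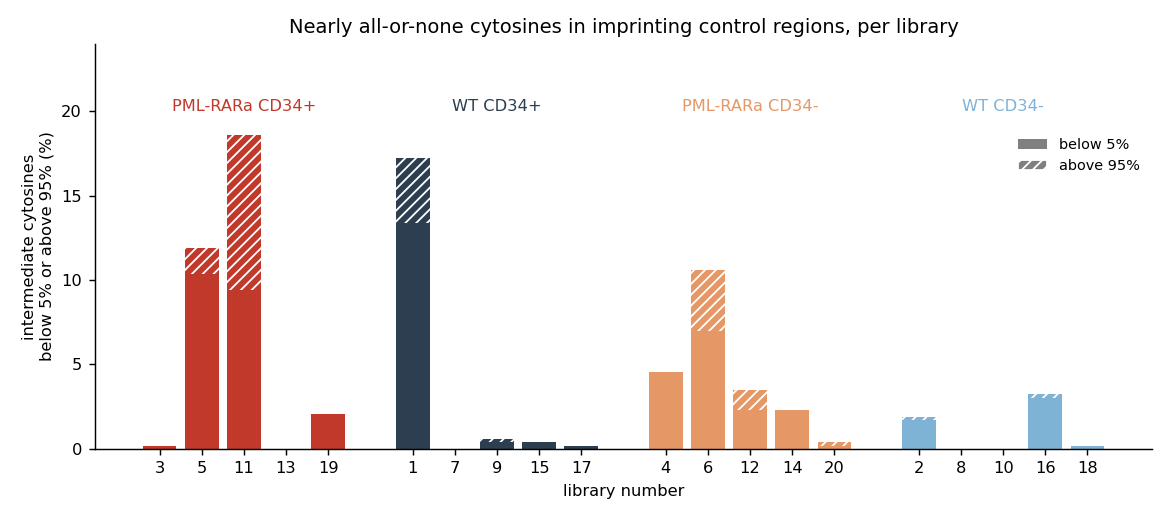
Share of the member cytosines of intermediate mean (vertical axis, percent) that read below 5% (plain bars) or above 95% (hatched bars) in each of the 20 libraries, by group. PML-RARa CD34+ libraries 11 and 5, WT CD34+ library 1 and PML-RARa CD34- library 6 lie between 10.6% and 18.6%, and the others at or under 4.55%.

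No control region was called as different between PML-RARa and WT promyelocytes. Fixed 1 kb windows and the region levels were fitted with a quasi-binomial model on methylated and unmethylated reads, with Benjamini-Hochberg adjustment over all 127296 regions. A call needed an adjusted p below 0.05 and group means that lay 10 percentage points or more apart. This model weights the libraries of a group by their reads, whereas every difference given here is between plain means over libraries. Its p and adjusted p are therefore not tests of the printed differences. Only the exact permutation p and interval refer to the plain means. In CD34+ cells 0 of 28 windows in the intervals and 0 of 10 levels were called, against 0.00314% of all 127276 windows. At an unadjusted p below 0.05 there were 0 of 28 windows, against 4.18% of all, and limma on log2 ratios gave 0 called and 0 at that p. In CD34- cells 0 of 28 windows and 0 of 10 levels were called, against 0.000786% of all windows. Here 2 of 28 windows had an unadjusted p below 0.05, against 7.79% of all, and limma gave 0 called and 1 at that p. At no region did the levels of PML-RARa and WT libraries fail to overlap, in either fraction, nor did those of any window, against 0.709% of all windows in CD34+ and 0.911% in CD34- cells.

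In CD34+ cells the largest positive difference of PML-RARa from WT was at Mest. The level was 36.1%, 37.7%, 38.6%, 43.9% and 62.2% in PML-RARa CD34+ libraries, against 13.2%, 32.6%, 34.4%, 36.0% and 38.4% in WT CD34+ libraries. Except for the 62.2% of library 11 and the 13.2% of library 1 the values ran from 32.6% to 43.9%, and the groups overlapped. The difference of means was 12.8 points with an exact 95% interval of 0.190 to 28.5 (two-sided exact permutation p = 0.0317, where the smallest possible is 0.00794; adjusted p from the quasi-binomial model 1). Without the 5 libraries it was 4.21 points, and over all member cytosines of the interval 7.50. Within flowcell B it was 15.4 points (3 libraries against 1) and within flowcell D 3.47 (1 against 2).

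Snrpn came next, with 44.2% ± 6.49 in PML-RARa CD34+ libraries, against 32.7% ± 11.0 in those of WT CD34+ cells (SD, n = 5 each). Its difference of 11.5 points had an interval of -0.239 to 25.9 (exact permutation p = 0.0556; p = 0.0468 and adjusted p = 1 from the quasi-binomial model) and was 6.93 points without the 5 libraries. Of the windows, that of Snrpn at 67149001 to 67150000 had the smallest p of any positive difference, with 10.9 points (p = 0.0671, adjusted p = 1 from the quasi-binomial model), and that of Grb10 at 11926001 to 11927000 the smallest p of any negative one, with -2.96 points (p = 0.122, adjusted p = 1).

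The largest negative difference was at Kcnq1ot1. PML-RARa CD34+ libraries had 22.0%, 39.5%, 40.0%, 42.4% and 42.8%, against 37.4%, 40.4%, 40.6%, 49.8% and 52.5% in WT CD34+ libraries. Library 11 alone lay below all WT values, and the groups overlapped. The difference was -6.80 points (interval -18.7 to 2.50, exact permutation p = 0.238, adjusted p = 1), and -0.333 without the 5 libraries. The 6 regions with a higher mean in PML-RARa CD34+ cells and the 4 with a lower one had a median difference of 2.17 points.

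In CD34- cells the means of the 2 genotypes lay closer when all libraries were used. The 10 differences ran from -2.23 to 3.67 points with a median of 1.54. All 10 exact intervals lay between -13.4 and 15.4 points, and that of Gnas, the narrowest, between -2.33 and 3.23. The largest positive difference was at Kcnq1ot1, with 39.2%, 39.6%, 39.8%, 42.7% and 46.9% in PML-RARa CD34- libraries, against 30.1%, 37.4%, 39.3%, 40.8% and 42.2% in WT CD34- libraries. The groups overlapped, and the interval was -1.79 to 9.57 (exact permutation p = 0.230, adjusted p = 0.786). PML-RARa exceeded WT by 3.67 points, and by 5.10 without the 5 libraries. H19 had the largest negative difference, at 60.0% ± 6.12 in PML-RARa and 62.3% ± 5.06 in WT CD34- libraries (interval of the difference -10.4 to 5.10, exact permutation p = 0.563, adjusted p = 0.827), -2.23 points or, without the 5 libraries, -0.530. Without the 5 libraries the means in CD34- cells no longer lay closer. The differences then ran from -1.99 points at Igf2r to 9.43 at Peg3, where it was 3.17 with all libraries. Those in CD34+ cells then ran from -1.23 points at Grb10 to 6.93 at Snrpn.

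The 2 neighbouring windows of Igf2r had differences of opposite sign in CD34- cells, and these had the smallest p in each direction. At 12935001 to 12936000 (19 cytosines) PML-RARa CD34- libraries had 38.5%, 43.2%, 45.2%, 59.5% and 72.6%, against 30.01%, 35.1%, 35.5%, 36.1% and 40.0% in WT CD34- libraries. Only the lowest PML-RARa value lay inside the WT range. The 38.5% and 72.6% belonged to libraries 12 and 6, which are among the 5 of high scatter. The difference was 16.5 points (p = 0.00188, adjusted p = 0.457 from the quasi-binomial model), 17.9 within flowcell A (3 against 2) and 19.0 within B (2 against 1). At 12934001 to 12935000 (9 cytosines) the levels were 32.7% ± 13.1 in PML-RARa and 45.5% ± 11.2 in WT CD34- libraries, a difference of -12.8 points (p = 0.0321, adjusted p = 0.613 from the quasi-binomial model). It was -18.9 points within flowcell A and 3.66 within B. The level over the whole region differed by 1.70 points (interval -8.68 to 12.5).

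**Figure D5:**
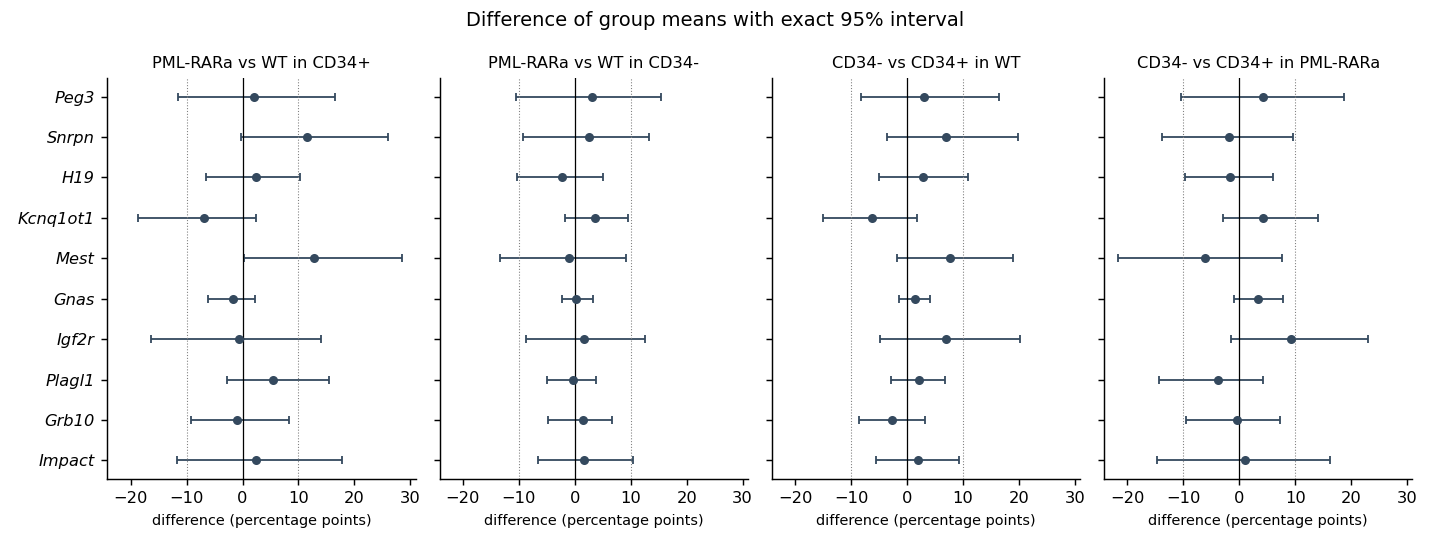
Difference of group means (horizontal axis, percentage points, named group first minus the second) with its exact 95% interval for each region in the 4 comparisons, n = 5 libraries per group; dotted lines mark 10 points. Only the interval of Mest, PML-RARa against WT in CD34+ cells, leaves out 0. Gnas, whose level pools the most cytosines, has the narrowest intervals.

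Across maturation no control region was called either. In WT cells 0 of 28 windows and 0 of 10 levels were called between CD34- and CD34+ libraries, against 0.426% of all windows. At an unadjusted p below 0.05 there were 3 of 28 windows, against 6.21% of all, and limma gave 0 called and 2 at that p. In PML-RARa cells 0 of 28 windows and 0 of 10 levels were called, against 0.0558% of all, with 3 of 28 at an unadjusted p below 0.05, against 9.42% of all, and 0 called and 1 at that p by limma. The 4 comparisons share groups, since each group stands in 2 of them. Over the 4 comparisons and the interaction, 2 of the 50 level tests had an unadjusted p below 0.05 by the quasi-binomial model and 1 by limma, and 0 were called by either.

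The window with the smallest p among all of these was in Gnas, at 174142001 to 174143000, in the highly methylated stretch (7 cytosines). WT CD34- libraries had 78.6%, 81.8%, 82.4%, 85.5% and 86.7%, against 87.8%, 88.8%, 89.9%, 92.6% and 94.5% in WT CD34+ libraries. The groups did not overlap, which was so at 1 of the 28 windows, against 2.09% of all. The difference was -7.72 points (p = 0.00164, adjusted p = 0.190 from the quasi-binomial model), and -10.2, -8.09 and -5.06 points within flowcells A, B and D. In PML-RARa cells the same window had 76.2%, 83.7%, 84.1%, 85.9% and 91.7% in CD34- libraries, against 87.2%, 88.9%, 89.4%, 90.1% and 92.1% in CD34+ libraries, and the groups overlapped, as they did at each of the 28 windows, against 1.02% of all windows without overlap (-5.21 points, p = 0.0119, adjusted p = 0.382). No flowcell but B held PML-RARa libraries of both CD34 fractions, and there the difference was -1.48 points. The interaction of this window was 2.52 points (adjusted p = 0.995).

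Among the levels, Mest had the largest positive difference in WT maturation. It stood at 32.0%, 37.3%, 38.6%, 41.2% and 44.2% in WT CD34- libraries, against 13.2%, 32.6%, 34.4%, 36.0% and 38.4% in WT CD34+ libraries. The groups overlapped, and the difference of 7.75 points (interval -1.77 to 18.9, exact permutation p = 0.119, adjusted p = 0.964) was 3.32 without the 5 libraries. Kcnq1ot1 had the largest negative one, with 38.0% ± 4.73 in CD34- and 44.1% ± 6.59 in CD34+ libraries (-6.17 points, interval -15.1 to 1.84, exact permutation p = 0.190, adjusted p = 0.842), and -4.08 points without the 5 libraries. Of windows with a positive difference, that of Snrpn at 67150001 to 67151000 (3 cytosines) had the smallest p, with 35.1% ± 7.69 in CD34- and 20.7% ± 13.7 in CD34+ libraries (adjusted p = 0.788 from the quasi-binomial model). PML-RARa CD34+ library 11 had no reads over the minimum there, so that fit held 19 libraries.

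In PML-RARa maturation the largest positive difference was at Igf2r, with 35.6%, 36.7%, 42.2%, 42.2% and 52.5% in CD34- libraries, against 13.7%, 32.4%, 36.3%, 37.0% and 43.6% in CD34+ libraries. The groups overlapped, with library 11 far below the rest. The difference was 9.22 points (interval -1.44 to 23.0, exact permutation p = 0.175, adjusted p = 0.729), and -0.814 points without the 5 libraries. Its window at 12935001 to 12936000 had the smallest p of any positive difference, with 15.7 points (adjusted p = 0.383 from the quasi-binomial model). Mest had the largest negative difference, with 37.6% ± 9.36 in CD34- and 43.7% ± 10.7 in CD34+ libraries (-6.08 points, interval -21.6 to 7.64, exact permutation p = 0.357, adjusted p = 0.838), and -1.03 points without the 5 libraries. Over all member cytosines of its interval Mest differed by -2.08 points, and on that measure H19 had the largest negative difference, with -5.34 points (adjusted p = 0.673 from the quasi-binomial model). Gnas, whose level had the least spread, stood at 41.7% ± 2.35 in CD34- and 38.3% ± 3.23 in CD34+ libraries (3.39 points, interval -1.0 to 7.83, exact permutation p = 0.103, with p = 0.0342 and adjusted p = 0.489 from the quasi-binomial model). That level pools 207 intermediate cytosines, against 10 at Peg3. Per intermediate cytosine, the median SD at Gnas was 13.8 points, above H19 (12.6), Grb10 (13.0) and Plagl1 (13.6) and below all other regions. The Gnas difference was 2.95 points without the 5 libraries, and over all member cytosines of the interval it was 0.800 points (adjusted p = 0.634 from the quasi-binomial model).

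The change with maturation was not found to differ between the genotypes at any region. The interaction gave 0 called of 28 windows and 0 called of 10 levels, against 0.0% of all windows, and 0 of 28 at an unadjusted p below 0.05, against 5.16% of all, with 0 called and 0 at that p by limma. Over the levels it ran from -13.8 points at Mest (adjusted p = 0.977) to 10.5 points at Kcnq1ot1 (adjusted p = 0.977). Without the 5 libraries it was -4.34 points at Mest and 5.43 points at Kcnq1ot1. Without PML-RARa CD34+ library 11 alone it was -9.22 points at Mest and 6.64 at Kcnq1ot1. The mean of the 10 levels was 41.4% ± 2.23 in PML-RARa CD34+, 38.8% ± 3.48 in WT CD34+, 42.3% ± 1.36 in PML-RARa CD34- and 41.2% ± 1.25 in WT CD34- libraries (n = 5 each, with SD), and the 33.3% of WT CD34+ library 1 was the lowest of all 20.

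The precision of these comparisons was that of the libraries, not of the reads. The SD within groups had a median of 7.85 points over the 24 windows of intermediate mean in the intervals, against 8.36 points over all 22720 such windows. The overdispersion had a median of 30.6 in these windows, against 13.7 in all. It is the spread of libraries over that of counts taken as independent at each cytosine. A read that spans several cytosines counts at each of them, which can raise it, and more so in windows of more cytosines. How much of it comes from this was not tested. The windows in the intervals held a median of 14 cytosines, against 5. The share of windows with a difference of at least 10 points, called or not, was set beside that of all windows and of all windows of intermediate mean, since 24 of the 28 are intermediate. Between genotypes in CD34+ cells it was 2 of 28 (7.14%), against 3.31% of all and 12.1% of intermediate windows, and in CD34- cells 2 of 28 (7.14%), against 2.35% and 8.40%. In WT maturation it was 4 of 28 (14.3%), against 3.08% of all and 12.7% of intermediate windows, and in PML-RARa maturation 3 of 28 (10.7%), against 4.64% and 16.4%.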

How the data were processed

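The deposited files list, per library, each CpG cytosine of each strand with its coverage, a count of reads, and the percent of reads with C and with T, per the file headers. CASAVA 1.8.2, Bismark and the mm9 genome are named in the submitters' processing notes. No listed cytosine had fewer than 10 reads. Methylated and unmethylated reads were computed as coverage times percent C and percent T and rounded; other bases, present at 1.38% to 3.23% of cytosines, were left out. Intervals came from the rule of the regions on mm9. No gene model of that build was used, so exons and introns are not stated.

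Groups were taken from the labels. Windows of 1 kb with at least 3 member cytosines (127276), the 10 intervals and the 10 sets of intermediate cytosines were fitted with a quasi-binomial model with 1 term per group, its overdispersion (16 residual degrees of freedom) moderated with 3.44 prior degrees of freedom as limma does and never let below 1, and a two-sided F test with Benjamini-Hochberg adjustment. Exact permutation used all 252 splits of 5 against 5, and intervals were found by inverting that test. The model was tested on simulated data. Python 3.11.15, numpy 2.4.6, scipy 1.17.1, R 4.3.3 and limma 3.58.1 were used. All 10 regions are named, per comparison the levels with the largest positive and negative difference and the window with the smallest p each way; Snrpn and Gnas levels and single libraries and cytosines beyond these were chosen after their values were seen. Regions, lists and tests were chosen with earlier results of these data known. Between libraries of a group the chi-square per window was 4.35 to 25.1 over 40 pairs, with counts at each cytosine taken as independent. Reads that span several cytosines can raise this value, so it does not show by itself that the libraries differ beyond sampling noise. Wilson intervals of single libraries cover counting error only. Alternatives were a coverage minimum of 20, cytosines covered in all 20 libraries, flowcell as a factor, the # mark of the titles as a factor within each genotype (added after seeing the data), 5 libraries left out, each library left out, 2 groups per fit, a block for consecutive library numbers, unweighted means, and limma.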

Additional observations from a re-analysis of the deposited data

Results flagged for a closer look

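A library was singled out where its gap to the nearest of the other 4 libraries of its group, divided by the range of all 5, was above Dixon's 95% critical value. Over 44 checks, the 10 levels and the share of cytosines near all or none in each of 4 groups, 5 values were singled out, and chance alone gives about 1 in 20, or 2.2. That number assumes normal values and independent checks. The checks share libraries, so it is a rough guide only.

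Peg3 stood at 18.6% in WT CD34+ library 1 (87 of 468 reads, 95% Wilson interval 15.3% to 22.4%), with the other libraries of the group between 39.2% and 46.3%. Mest stood at 13.2% in the same library (74 of 562 reads, interval 10.6% to 16.2%), with the others between 32.6% and 38.4%. In that library 17.2% of the intermediate member cytosines read below 5% or above 95%, with the others between 0 and 0.569%. Kcnq1ot1 stood at 22.0% in PML-RARa CD34+ library 11 (37 of 168 reads, interval 16.4% to 28.9%), with the others between 39.5% and 42.8%. H19 stood at 49.5% in PML-RARa CD34- library 6 (1123 of 2268 reads, interval 47.5% to 51.6%), with the others between 61.2% and 65.5%. Reads are counted once per cytosine they span, so these intervals are too narrow.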

How the results depend on the processing

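No window in the intervals and no level was called under any setting run. The smallest adjusted p of a window was 0.0647, in WT maturation with the # mark of the titles, within a genotype, as a factor, which was chosen after seeing the data, and the smallest of a level was 0.250, with 1 library left out. Of 1010 level differences over all settings 80 changed direction against the value reported, none of them called: 45 of 600 with each library left out, 13 of 50 without the 5 libraries of high scatter, 9 of 50 with cytosines covered in all 20 libraries, 9 of 50 with unweighted means, 4 of 50 at a coverage minimum of 20, and 0 with flowcell or the # mark as a factor, limma on log2 ratios, 2 groups per fit or the block, all of which keep the group means as reported. The cause was not tested. With 1 library left out, the Mest difference between PML-RARa and WT in CD34+ cells ran from 8.18 to 14.7 points. Consecutive numbers were not taken as pairs, since the labels do not name them so. The correlation of their deviations was above 0.1 in 3 of 10 pairs (-0.0578 to 0.238). Other pairs of libraries were not correlated for comparison, so these values cannot decide whether consecutive libraries are paired. With consecutive numbers as a block, the smallest adjusted p of a level was 0.577 by the quasi-binomial model. Elsewhere in the genome the count of called windows moved with the setting: PML-RARa maturation had 71 as reported, 27 by limma, 3 without the 5 libraries and 0 with flowcell as a factor. At Peg3, PML-RARa CD34+ library 11 had 109 reads over the intermediate cytosines and at Kcnq1ot1 168, the fewest of any level.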

Other observations

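The 10 kb on each side of the intervals were read for comparison. Of 20 flanks 12 held cytosines that met the coverage rule, 360 in all, of which 108 were of intermediate mean. Most of these lay before the Gnas interval, where 95 of 105 cytosines were intermediate and the mean was 41.6%, with libraries between 36.3% and 53.5%. The flank after Gnas had 62 cytosines, 50 of them below 20% and none intermediate. After Grb10, 148 of 150 cytosines lay below 20%, with a mean of 3.90%. The few cytosines beside Snrpn, Kcnq1ot1, Igf2r, Plagl1 and Impact were mostly above 80%: the 3 after Snrpn averaged 94.1%, the 8 after Igf2r 89.8% and the 1 before Impact 98.8%.

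Both strands of a CpG site were measured at 191 sites in the intervals. At the 123 sites where both strands were of intermediate mean, the strands' means differed by a median of 3.89 points and at most 23.7. At 16 sites 1 strand was below 20% and the other was not, 14 of them in Grb10 and 2 in Gnas. Reads of the plus and minus strands come from different strands of the DNA, and what sets them apart at these sites was not tested.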
